A study of Homo sapiens with 8 samples.

Results

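The translation initiation factors (eIFs), the translation elongation factors (eEFs) and the eIF4E-binding proteins (4E-BPs) were examined at the mRNA level in human keratinocytes treated with O/A, a pair of mitochondrial inhibitors. Genes were chosen by symbol, as EIF followed by a digit from 1 to 6, or as EEF1 or EEF2. The kinases EIF2AK1 to EIF2AK4, the tRNA synthetase partner EEF1E1, a Y-linked paralog, readthrough symbols and pseudogene symbols were left out. Symbols alone chose 63 of the 61806 genes in the table, and 60 of these had at least 10 counts in at least 4 of the 8 libraries and were tested, among 14893 genes tested in all.

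Translation of most mRNAs starts when eIF2, a complex of α, β and γ subunits, brings the initiator tRNA to the small ribosomal subunit, while eIF3, eIF1 and eIF1A hold that subunit ready and guard the choice of start codon. The cap-binding protein eIF4E, the scaffold eIF4G and the helicase eIF4A form eIF4F, which loads the small subunit onto capped mRNA, and 4E-BPs block this step by taking the place of eIF4G on eIF4E when the kinase complex mTORC1 is inactive. Exchange of nucleotide on eIF2 needs eIF2B, and elongation needs eEF1A, eEF2 and eIF5A, with eEF2 held back by its kinase, eEF2K. These factors are much regulated by phosphorylation, which mRNA levels do not show.

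Libraries were made from N/TERT-1 cells, an immortalized line of human epidermal keratinocytes of wild-type (WT) genotype. There were 4 libraries from cells given ethanol, the control, and 4 from cells given oligomycin and antimycin A together (O/A), which block the mitochondrial ATP synthase and Complex III and thereby depolarize mitochondria. The cell line, genotype and growth medium were shared by both conditions, and each library of a condition came from a separate experiment. All results rest on this 1 cell line. The labels give neither dose nor time, whereas the paper states 4 hours of O/A for its RNA comparison.

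Total counts ran from 17210404 to 20999927 per ethanol library and from 17689760 to 19263046 per O/A library. Pairs of libraries within a condition differed by more than sampling noise (chi-square over its degrees of freedom 1.76 to 5.74), and pairs across conditions by far more (52.9 to 64.0). The keratinocyte markers KRT5, KRT14, TP63, ITGA6, COL17A1 and DSG3 had 3155 to 121292 counts in every library. Of the 12 markers of fibroblasts, melanocytes, endothelial cells and leukocytes, 10 had at most 4 counts in any library, whereas COL1A1 had 376 to 557 and PMEL 17 to 45, and neither passed a threshold. KRT5 (log2(FC) -0.30) and DSG3 (0.99) passed both thresholds given next. In bulk libraries such as these, fewer cells of a type and less RNA per cell cannot be told apart.

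A gene was called upregulated or downregulated in O/A by 2 thresholds: an adjusted p no higher than 0.05 by the quasi-likelihood test of edgeR (Benjamini-Hochberg, all tested genes) and a log2(FC) above 0.25 or below -0.25. Adjusted p-values are from that test unless limma is named, and log2(FC) is the log2 ratio of O/A to ethanol. Of the 60 tested factors, 19 (31.7%) passed both thresholds, against 34.7% of all genes tested. In detail, 7 were upregulated, where 15.8% of all genes were, and 12 were downregulated, where 18.9% of all genes were. An adjusted p of at most 0.05 was reached by 40 factors, against 53.7% of all genes, so that 21 moved by less than the log2(FC) threshold, and for 38 factors the 4 O/A libraries did not overlap the 4 ethanol libraries in TMM-scaled counts, against 47.6% of all genes. The median log2(FC) was 0.034 over the factors and -4e-04 over all genes. The share of factors called was thus near that of all genes.

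**Figure D1:**
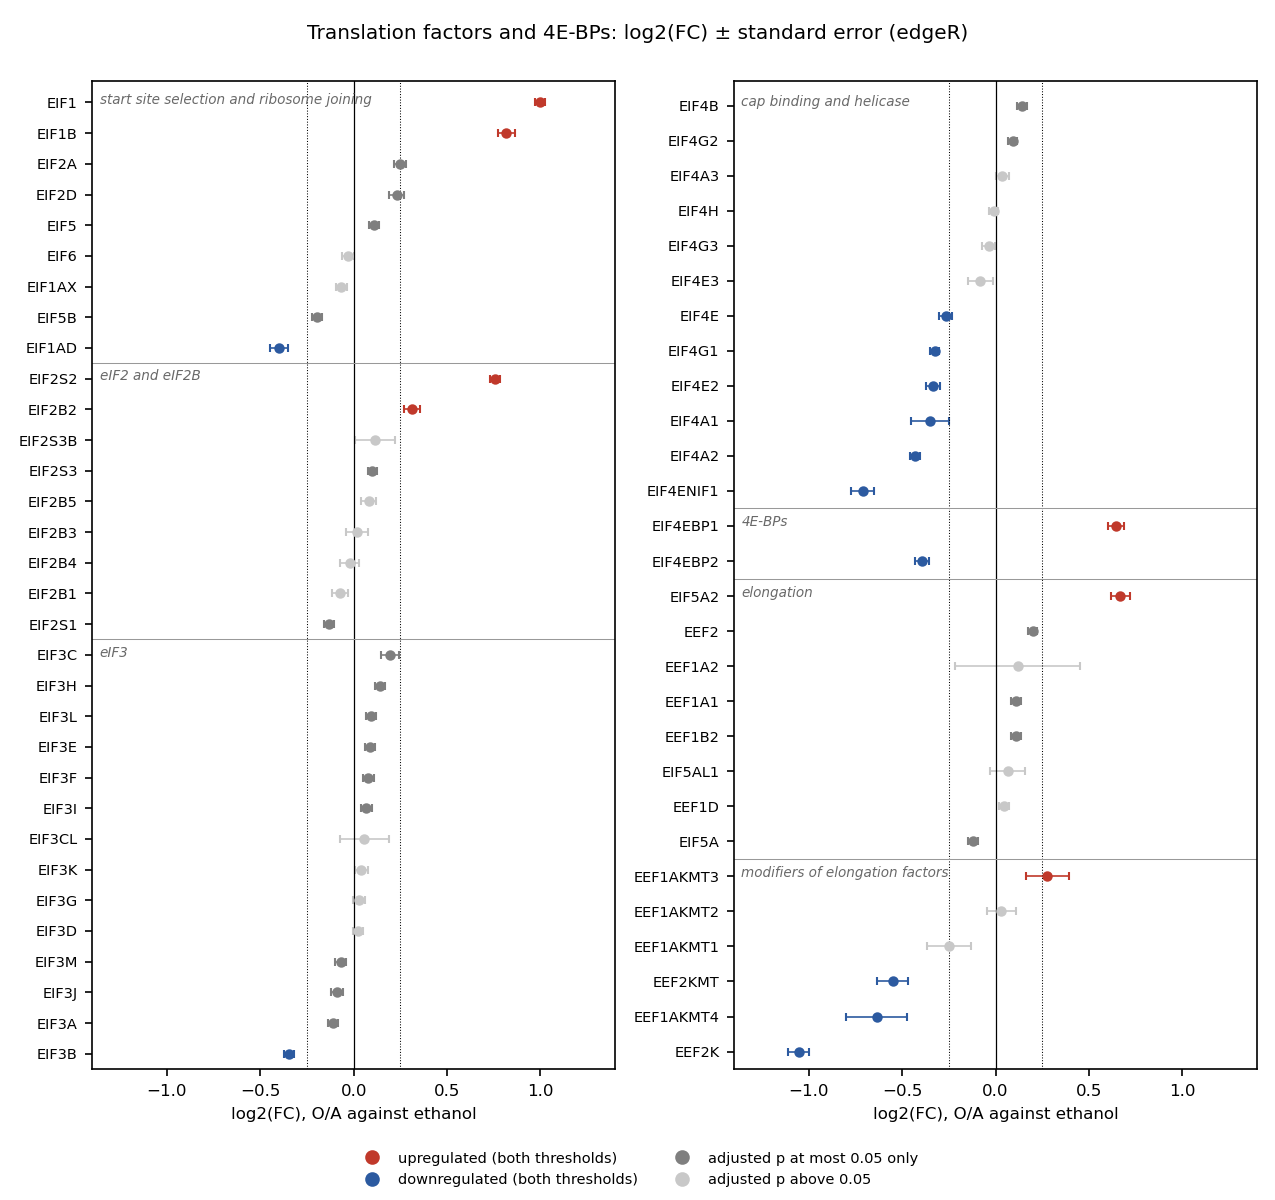
Log2(FC) of O/A against ethanol for the 60 tested factors, with each point an edgeR estimate from 4 libraries against 4, bars its standard error, and dotted lines the thresholds of -0.25 and 0.25. EIF1 (1.00) lies farthest to the right and EEF2K (-1.05) farthest to the left, while 13 of the 14 eIF3 points lie between the dotted lines.

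Among the 9 genes grouped under start site selection and ribosome joining, EIF1 and its paralog EIF1B rose, EIF1AD fell, and the other 6 did not pass both thresholds. EIF1 encodes the small protein that keeps the scanning ribosome from starting at the wrong codon, and it lies on chromosome 17 from 41688885 to 41692668. Its level, in FPKM (fragments scaled to exonic length and library total), was 118, 121, 119 and 115 in ethanol replicates 1 to 4 and 234, 224, 230.5 and 227 in O/A replicates 1 to 4. The lowest O/A library was far above the highest ethanol library, and EIF1 had the largest rise of all the factors (log2(FC) 1.00, standard error 0.025, adjusted p = 5.92e-36). EIF1B, which encodes a close relative of eIF1 and lies on chromosome 3 from 40309707 to 40312424, stood at 16.04, 15.8, 16.1 and 14.8 FPKM in ethanol and 27.6, 25.4, 27.1 and 26.9 FPKM in O/A. These libraries did not overlap either (log2(FC) 0.82, standard error 0.048, adjusted p = 1.36e-20). Both paralogs rose, and the share of EIF1B in their summed FPKM was 11.7 ± 0.316% in ethanol and 10.5 ± 0.192% in O/A (mean ± SD, n = 4).

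EIF1AD, named for a domain like that of eIF1A, fell from 12.8, 13.6, 14.7 and 13 FPKM in ethanol to 9.63, 10.1, 9.78 and 10.2 FPKM in O/A (log2(FC) -0.40, standard error 0.049, adjusted p = 6.78e-10). EIF5 encodes the protein that makes eIF2 hydrolyse its GTP once the start codon is found, and it stood at 55.6, 56.7, 53.6 and 52.9 FPKM in ethanol against 59.9, 57.4, 56.1 and 55.2 in O/A. The FPKM values of EIF5 overlapped although its scaled counts did not, and its shift was within the log2(FC) threshold (log2(FC) 0.11, standard error 0.027, adjusted p = 0.000741), and turned to -0.015 under quantile normalization. The ratio of EIF1 to EIF5, factors with opposed effects on start codon choice, was 2.12, 2.14, 2.22 and 2.18 in ethanol replicates 1 to 4 and 3.91, 3.91, 4.11 and 4.12 in O/A replicates 1 to 4, given here as a description with no test. Of the remaining genes in this group, EIF2A, which is known for carrying initiator tRNA without eIF2, had a log2(FC) of 0.249, just inside the threshold (adjusted p = 1.61e-09). EIF2D, which acts on ribosomes after termination (0.23), and EIF5B, the GTPase that joins the ribosomal subunits (-0.19), also had an adjusted p of at most 0.05 only, while EIF1AX (-0.067) and EIF6 (-0.032) passed neither threshold.

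In eIF2, the mRNA of the β subunit was upregulated, while those of the α and γ subunits had small shifts in opposite directions that stayed within the log2(FC) threshold. EIF2S2, which encodes the β subunit and lies on chromosome 20 from 34088309 to 34112243, stood at 136, 141, 140.5 and 131 FPKM in ethanol replicates 1 to 4 and 229, 222, 227 and 221 FPKM in O/A replicates 1 to 4. The conditions were far apart, and EIF2S2 had the third largest rise among the factors (log2(FC) 0.76, standard error 0.026, adjusted p = 5.36e-30). EIF2S1, the α subunit that stress kinases phosphorylate, stood at 39.9, 40.4, 40.6 and 38.1 FPKM in ethanol and 35.1, 35.7, 34.5 and 35.2 FPKM in O/A, lower in every O/A library by a small amount (log2(FC) -0.13, standard error 0.028, adjusted p = 6.87e-05). EIF2S3, the γ subunit that binds GTP and the tRNA, stood at 73.5, 74.7, 75.8 and 74.6 FPKM in ethanol and 77.7, 79.5, 76.3 and 76.7 FPKM in O/A. That shift was also small (log2(FC) 0.10, standard error 0.026, adjusted p = 0.000834), and its log2(FC) was -0.0049 under quantile normalization.

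As a ratio per length, there were 3.41, 3.49, 3.46 and 3.44 FPKM of EIF2S2 for each FPKM of EIF2S1 in ethanol and 6.52, 6.198, 6.59 and 6.28 in O/A. The ratio of EIF2S3 to EIF2S1 was 1.88 ± 0.0532 in ethanol and 2.21 ± 0.0184 in O/A (mean ± SD, n = 4), and in neither ratio did the conditions overlap. Rows for pseudogenes of EIF2S2 held 5.29% as many counts as EIF2S2 itself, and the retrogene EIF2S3B, near identical to EIF2S3 and therefore uncertain, had 111 to 147 counts per library and a log2(FC) of 0.11 that passed neither threshold.

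Of the 5 subunits of eIF2B, the exchange factor that reloads eIF2 with GTP, only EIF2B2 passed both thresholds. EIF2B2, the β subunit, stood at 7.57, 7.93, 7.81 and 7.6 FPKM in ethanol and 9.08, 9.02, 9.85 and 9.19 FPKM in O/A (log2(FC) 0.31, standard error 0.044, adjusted p = 3.84e-08). No O/A library of EIF2B2 fell into the range of the ethanol libraries, and 23.6% of its exonic bases overlap other annotated genes on the opposite strand. EIF2B1, the α subunit, stood at 18.4, 17.5, 18.04 and 18.4 FPKM in ethanol and 16.2, 17.8, 16.2 and 16.4 FPKM in O/A (log2(FC) -0.073, standard error 0.04, adjusted p = 0.122). EIF2B3, the γ subunit, stood at 7.88, 8.64, 8.74 and 7.64 and 8.19, 7.5, 8.9 and 7.56 FPKM in the same order (log2(FC) 0.017, standard error 0.059, adjusted p = 0.837). The conditions overlapped for both of these subunits. EIF2B4, the δ subunit, stood at 7.05, 7.23, 7.18 and 6.57 FPKM in ethanol and 6.68, 7.05, 6.61 and 6.36 FPKM in O/A (log2(FC) -0.022, standard error 0.05, adjusted p = 0.739). EIF2B5, the ε subunit that carries the catalytic part, stood at 8.43, 8.29, 8.32 and 8.05 FPKM in ethanol and 8.55, 8.35, 8.53 and 8.47 FPKM in O/A (log2(FC) 0.08, standard error 0.039, adjusted p = 0.0789). Thus 4 of the 5 subunits passed neither threshold, which does not show that they were equal between conditions.

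In eIF3, the large scaffold on the small ribosomal subunit, 1 of 14 tested genes was called, against 34.7% of all genes, and 9 others had an adjusted p of at most 0.05 with a log2(FC) within the threshold, so that 10 reached that adjusted p, against 53.7% of all genes. The called gene was EIF3B, a core subunit that binds RNA and other subunits, on chromosome 7 from 2354086 to 2380745. EIF3B stood at 46.3, 47.4, 47.5 and 45.6 FPKM in ethanol and 35.95, 35.5, 35.5 and 35.3 FPKM in O/A, without overlap (log2(FC) -0.35, standard error 0.025, adjusted p = 5.33e-17). EIF3A, the largest core subunit, moved in the same direction by less (-0.11), and the ratio of EIF3B to EIF3A in FPKM was 0.426, 0.446, 0.436 and 0.428 in ethanol and 0.374, 0.373, 0.353 and 0.375 in O/A. The other 13 eIF3 genes lay between a log2(FC) of -0.11 (EIF3A) and 0.20 (EIF3C), and the median of the 14 was 0.049. EIF3C and EIF3CL are near-identical genes on chromosome 16 whose shared reads cannot be assigned to 1 of them, and both values are uncertain. EIF3L also shares 51.8% of its exonic bases with other annotated genes.

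In the cap-binding and helicase group, 6 of 12 tested genes were downregulated, where 18.9% of all genes were, and 0 were upregulated, with a median log2(FC) of -0.17. EIF4G1, the main scaffold of eIF4F, on chromosome 3 from 184314495 to 184335358, stood at 107, 106, 105 and 106 FPKM in ethanol replicates 1 to 4 and 80.3, 82.05, 82.4 and 82.8 FPKM in O/A replicates 1 to 4. Every O/A library was lower than every ethanol library (log2(FC) -0.32, standard error 0.024, adjusted p = 1.12e-16). EIF4G2, a relative that lacks the eIF4E binding site and serves cap-independent translation, stood at 177, 178, 178 and 175 FPKM in ethanol and 186, 182, 179.5 and 183 FPKM in O/A (log2(FC) 0.091, standard error 0.024, adjusted p = 0.000931), and its adjusted p was 0.222 under quantile normalization (limma). EIF4G3, a second scaffold, stood at 10.3, 10.6, 10.1 and 11.1 and 9.77, 10.2, 9.77 and 9.9 FPKM in the same order, and the test did not call it (log2(FC) -0.037, standard error 0.033, adjusted p = 0.35). Relative to each other, there were 1.66, 1.69, 1.698 and 1.65 FPKM of EIF4G2 per FPKM of EIF4G1 in ethanol and 2.32, 2.22, 2.18 and 2.21 in O/A.

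EIF4E, the cap-binding protein itself, on chromosome 4 from 98879276 to 98929133, stood at 21.2, 20.04, 21.4 and 20.2 FPKM in ethanol and 16.1, 16.6, 17.4 and 16.5 FPKM in O/A. It was lower in all 4 O/A libraries (log2(FC) -0.27, standard error 0.035, adjusted p = 5.07e-09), but its pseudogene rows held 14.2% as many counts, and with these added its log2(FC) was -0.249, inside the threshold. EIF4E2, a cap-binding relative known for repressing translation, stood at 9.57, 9.73, 9.3 and 9.16 FPKM in ethanol and 7.23, 7.77, 6.81 and 7.19 FPKM in O/A (log2(FC) -0.34, standard error 0.036, adjusted p = 2.21e-11). The ratio of EIF4E2 to EIF4E overlapped between conditions, at 0.457 ± 0.0212 in ethanol and 0.436 ± 0.0321 in O/A (mean ± SD, n = 4). EIF4E3, another cap-binding relative, stood at 1.87, 1.63, 1.74 and 1.82 FPKM in ethanol and 1.56, 1.77, 1.59 and 1.55 FPKM in O/A and was not called (log2(FC) -0.081, standard error 0.068, adjusted p = 0.326). EIF4ENIF1 encodes 4E-T, which carries eIF4E into the nucleus and to processing bodies, and it lies on chromosome 22 from 31436977 to 31496108. EIF4ENIF1 had the largest fall of this group, from 4.43, 4.63, 4.71 and 4.21 FPKM in ethanol to 2.57, 2.67, 2.82 and 2.56 FPKM in O/A (log2(FC) -0.71, standard error 0.062, adjusted p = 2.98e-14).

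Both eIF4A paralogs were called downregulated, with unequal certainty. EIF4A2, on chromosome 3 from 186783205 to 186789897, stood at 46.2, 45.7, 46.3 and 46.4 FPKM in ethanol and 32.9, 33.6, 33.9 and 32.5 FPKM in O/A (log2(FC) -0.43, standard error 0.027, adjusted p = 1.54e-19). The libraries of each condition lay close together and the conditions were far apart. EIF4A1 stood at only 2.72, 2.98, 3.06 and 3.63 FPKM in ethanol and 2.01, 2.09, 2.59 and 2.76 FPKM in O/A, and the conditions overlapped (exact two-sided permutation p = 0.0571, where 0.0286 is the smallest that 4 libraries against 4 can give). Its call (log2(FC) -0.35, standard error 0.10, adjusted p = 0.0052) is uncertain: 47.4% of its exonic bases lie in other annotated genes on the same strand and its 13 pseudogene rows held 171.4% as many counts as EIF4A1, and the part of either in its low level was not tested. With the pseudogene counts added, its log2(FC) was -0.12 and it was not called. EIF4B, which stimulates the helicase, moved the other way within the threshold, from 94.7, 89.98, 95.2 and 90.5 FPKM in ethanol to 102, 96.97, 101 and 96.04 FPKM in O/A (log2(FC) 0.14, standard error 0.026, adjusted p = 6.78e-06), and was at 0.0081 under quantile normalization (adjusted p = 0.801, limma). EIF4H (-0.01), a related helper of the helicase, and EIF4A3 (0.036), a helicase of the exon junction complex, passed neither threshold.

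Of the 4E-BPs, EIF4EBP1 and EIF4EBP2 moved in opposite directions. EIF4EBP1, on chromosome 8 from 38030534 to 38060365, stood at 57.2, 51.99, 51.4 and 54.6 FPKM in ethanol replicates 1 to 4 and 84.9, 78.7, 79.3 and 83.5 FPKM in O/A replicates 1 to 4. It rose in every O/A library (log2(FC) 0.64, standard error 0.042, adjusted p = 1.23e-18). EIF4EBP2, on chromosome 10 from 70404145 to 70428618, stood at 13.3, 14.2, 14.1 and 14.1 FPKM in ethanol and 10.01, 10.9, 9.89 and 10.4 FPKM in O/A and fell (log2(FC) -0.39, standard error 0.036, adjusted p = 1.08e-13). EIF4EBP3 was not tested, with at most 1 count per ethanol library and at most 2 per O/A library, and 73.2% of its exonic bases lie in other annotated genes, most of them in the readthrough gene ANKHD1-EIF4EBP3, which had 480 counts in all. Each call for EIF4EBP1 and EIF4EBP2 was also made under the alternatives of scaling, unit, filter and tool and without any 1 library.

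Per length, EIF4EBP1 was the more abundant 4E-BP in both conditions, and its share of the summed 4E-BP level was 81.2, 78.5, 78.3 and 79.4% in ethanol replicates 1 to 4 and 89.5, 87.7, 88.8 and 88.9% in O/A replicates 1 to 4. This order rests on exonic lengths of 880 bases for EIF4EBP1 and 7491 for EIF4EBP2. Counts per library were 779 to 1009 for EIF4EBP1 and 1823 to 2223 for EIF4EBP2 in ethanol. In O/A they were 1302 to 1345 and 1327 to 1530. With EIF4EBP1 higher and EIF4E lower in O/A, the summed 4E-BP level per FPKM of EIF4E was 3.33, 3.303, 3.07 and 3.41 in ethanol and 5.904, 5.39, 5.14 and 5.698 in O/A. This ratio averaged 3.28 ± 0.149 in ethanol and 5.53 ± 0.335 in O/A (mean ± SD, n = 4), and the highest ethanol library was below the lowest O/A library. The size of this difference also rests on the exonic lengths, as EIF4EBP2, which fell, had more counts than EIF4EBP1 in ethanol. EIF4E, the divisor, lost its call with pseudogene counts added. All these values are ratios of mRNA levels, and the amounts of the proteins were not measured.

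**Figure D2:**
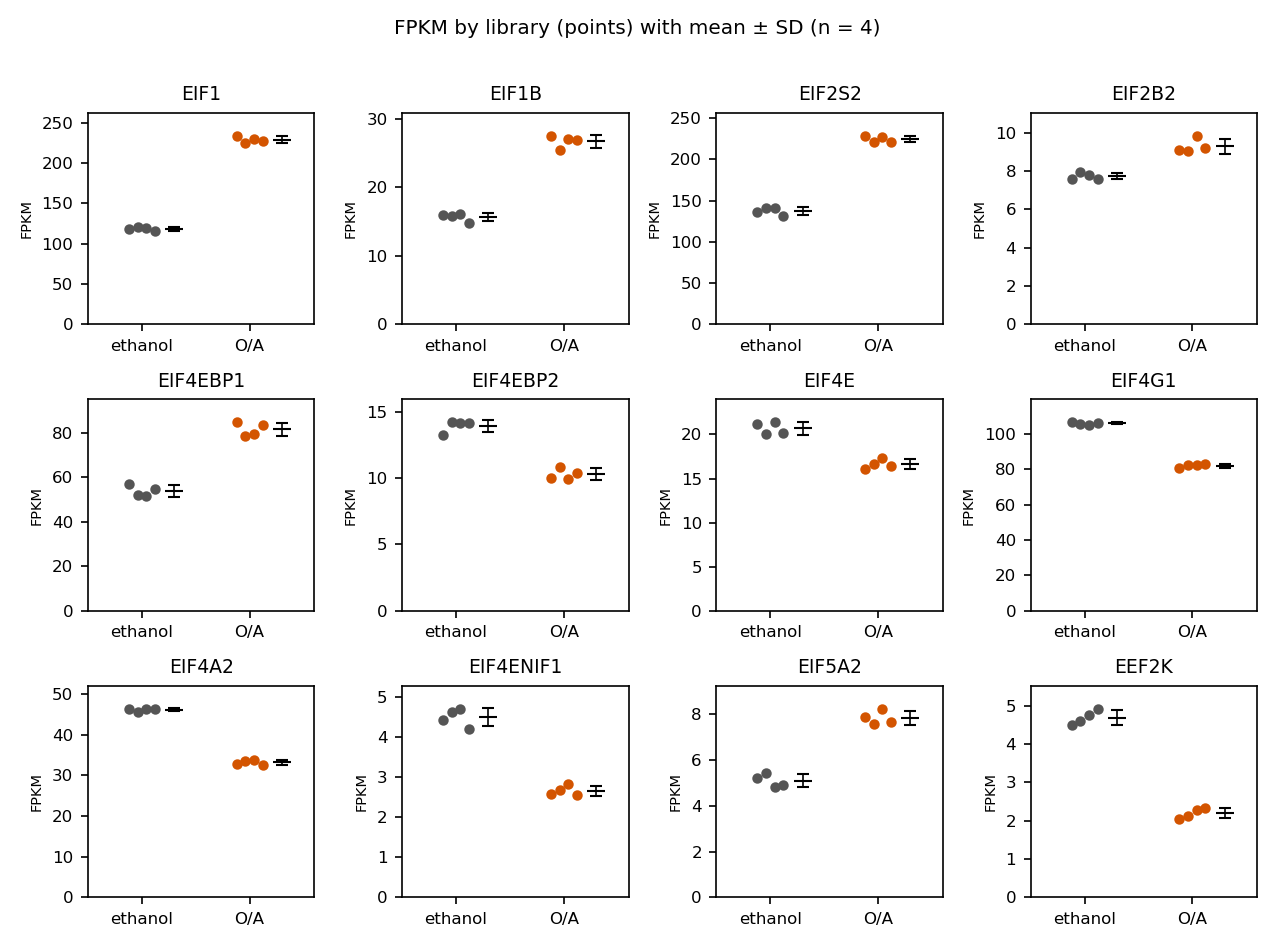
FPKM of 12 factors in each library (points, 4 per condition) with the mean and SD beside them, each panel on its own linear axis from 0. The 12 were picked from the called factors, and the conditions do not overlap in any of these panels. Higher in O/A are EIF1, EIF1B, EIF2S2, EIF2B2, EIF4EBP1 and EIF5A2. Lower in O/A are EIF4EBP2, EIF4E, EIF4G1, EIF4A2, EIF4ENIF1 and EEF2K. The called factors EIF4A1 and EEF1AKMT3, whose conditions overlapped, are not shown.

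Of the 8 tested elongation genes, 1 was called, EIF5A2, against 34.7% of all genes tested. By FPKM, EEF1A1 and EEF2 were the highest of all the factors, although the levels of EEF1G and EIF4A1 are uncertain. EEF1A1, which delivers aminoacyl-tRNA to the ribosome, stood at 700.1, 669, 710.02 and 673 FPKM in ethanol and 746, 712, 718 and 702 FPKM in O/A (log2(FC) 0.11, standard error 0.025, adjusted p = 0.00016). EEF2, the GTPase that moves the ribosome along, stood at 439, 435, 444 and 434 FPKM in ethanol and 501, 481, 484 and 483 FPKM in O/A (log2(FC) 0.20, standard error 0.024, adjusted p = 4.28e-10). EEF2 was higher in every O/A library, whereas the FPKM values of EEF1A1 overlapped and only its scaled counts did not, and both shifts were smaller than the threshold. Under quantile normalization their log2(FC) was 0.13 for EEF1A1 (adjusted p = 0.266, limma) and 0.038 for EEF2 (0.114). The called gene, EIF5A2, is the less abundant paralog of EIF5A, which carries the amino acid hypusine and helps ribosomes past stalls. EIF5A2, on chromosome 3 from 170888418 to 170908644, rose from 5.23, 5.44, 4.82 and 4.89 FPKM in ethanol to 7.89, 7.56, 8.24 and 7.67 FPKM in O/A (log2(FC) 0.67, standard error 0.051, adjusted p = 2.84e-16). EIF5A itself stood at 159.7, 161, 164 and 152 FPKM in ethanol and 143, 141, 143 and 140.2 FPKM in O/A, slightly lower in O/A (log2(FC) -0.12, standard error 0.026, adjusted p = 0.000103). EIF5A2 made up 3.17, 3.27, 2.86 and 3.12% of the summed FPKM of the pair in ethanol and 5.22, 5.099, 5.45 and 5.19% in O/A, and EIF5A remained by far the main form.

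The remaining elongation genes gave no call. EEF1B2 (0.11), an exchange factor for eEF1A, had an adjusted p of at most 0.05 only, while EEF1D (0.045), EIF5AL1 (0.066), which is near identical to EIF5A, and EEF1A2 (0.12), with 4 to 17 counts per library, passed neither threshold. EEF1G was not tested: it had 3 to 16 counts per library, and 99.7% of its exonic bases lie within an unnamed readthrough gene on the same strand, so its level cannot be read from these counts. The pseudogene rows of EEF1A1 and EEF1B2 held 7.54% and 7.03% as many counts as their parents.

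The genes that modify elongation factors held the largest fall. EEF2K encodes the calcium-dependent kinase that phosphorylates and inactivates eEF2, and it lies on chromosome 16 from 22206278 to 22288738. EEF2K stood at 4.48, 4.6, 4.75 and 4.92 FPKM in ethanol replicates 1 to 4 and 2.04, 2.12, 2.28 and 2.32 FPKM in O/A replicates 1 to 4, from counts of 649 to 830 with ethanol and of 290 to 353 with O/A. Its highest O/A library was below its lowest ethanol library by a wide margin (log2(FC) -1.05, standard error 0.057, adjusted p = 7.1e-22), and it was the 1 factor past a log2(FC) of 1 in size. The level of EEF2 per FPKM of EEF2K was 98.03, 94.5, 93.5 and 88.2 in ethanol and 246, 227, 212 and 208 in O/A.

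EEF2KMT, which methylates eEF2, fell from 4.86, 4.17, 5.12 and 4.42 FPKM in ethanol to 3.1, 3.14, 2.93 and 3.11 FPKM in O/A (log2(FC) -0.55, standard error 0.083, adjusted p = 1.37e-07), and 31.4% of its exonic bases overlap its neighbour ALG1 and other genes on the opposite strand. EEF1AKMT4, a methyltransferase of eEF1A, fell from 4.13, 3.74, 3.81 and 3.08 FPKM in ethanol to 2.09, 2.78, 2.02 and 2.26 FPKM in O/A, from counts of 63 to 74 with ethanol and of 36 to 51 with O/A (log2(FC) -0.64, standard error 0.16, adjusted p = 0.000803). Its libraries did not overlap, although 49.2% of its exonic bases also lie in a readthrough gene. EEF1AKMT3, another methyltransferase of eEF1A, was called upregulated (log2(FC) 0.28, standard error 0.11, adjusted p = 0.0367) from 90 to 132 counts per library, its conditions overlapped (exact two-sided permutation p = 0.0571), and the call was lost in 9 of the 17 alternatives, with log2(FC) values of 0.15 to 0.37 over all of them. EEF1AKMT1 had a log2(FC) of -0.25 and an adjusted p of 0.0682, and EEF1AKMT2 a log2(FC) of 0.032.

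**Figure D3:**
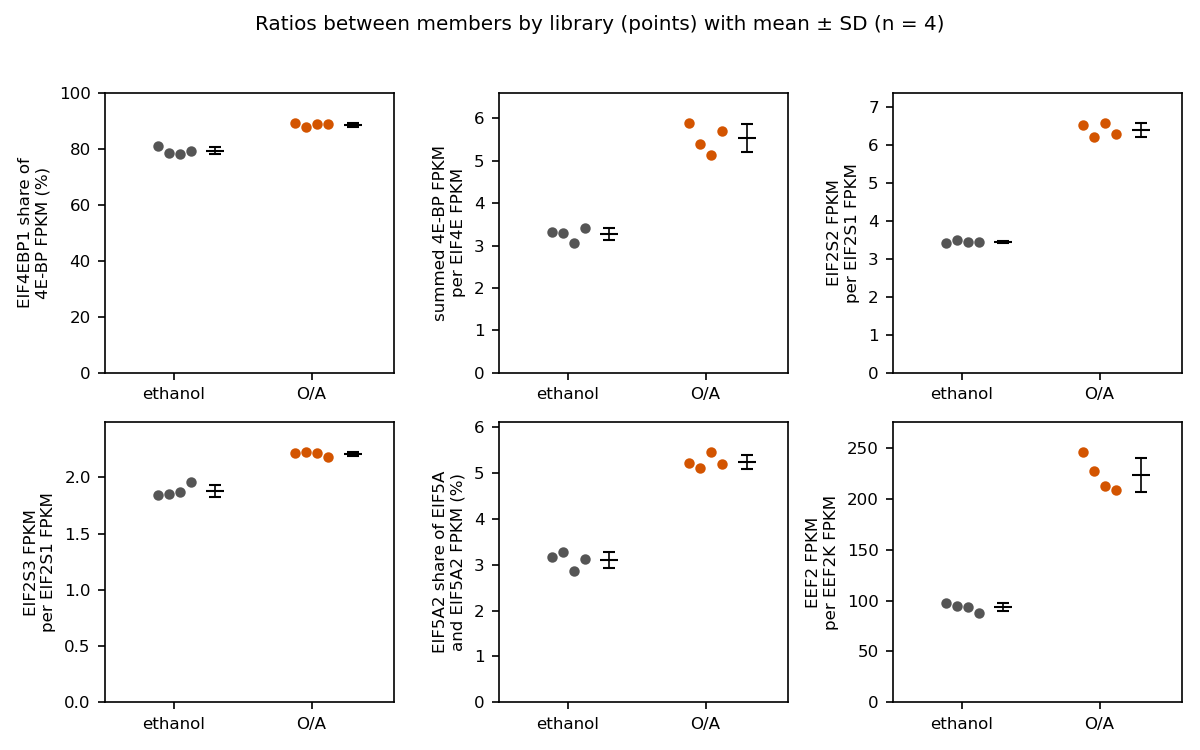
Ratios and shares of FPKM between factors in each library (points, 4 per condition) with the mean and SD beside them, each panel on its own linear axis from 0. The conditions do not overlap in any panel shown: the share of EIF4EBP1 among the 4E-BPs, the 4E-BP level per EIF4E, EIF2S2 and EIF2S3 per EIF2S1, the share of EIF5A2, and EEF2 per EEF2K (93.6 in ethanol and 223 in O/A) are all higher in O/A. Of the ratios in the text that are not shown, EIF4E2 to EIF4E overlapped. The share of EIF1B and the ratio of EIF3B to EIF3A were lower in O/A, and EIF1 to EIF5 and EIF4G2 to EIF4G1 were higher.

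Set side by side per length, the changes altered the order of the abundant factors. The mean FPKM in ethanol was 688 ± 20.1 for EEF1A1, 438 ± 4.69 for EEF2, 177 ± 1.4 for EIF4G2, 159 ± 5.16 for EIF5A, 137 ± 4.64 for EIF2S2, 128 ± 3.36 for EEF1B2, 119 ± 2.19 for EIF6 and 118 ± 2.45 for EIF1 (mean ± SD, n = 4). EIF1 and EIF2S2 were each below EIF4G2 and EIF5A in every ethanol library and above both in every O/A library, where they averaged 229 ± 4.24 and 225 ± 4.11 FPKM with overlapping ranges, although EIF1 was the higher of the pair in each O/A library, against 183 ± 2.81 for EIF4G2 and 142 ± 1.55 for EIF5A. By FPKM, EEF1A1 and EEF2 stayed above all other factors in each library. The levels of EEF1G and EIF4A1 are uncertain, so neither can be placed in this order. The order also rests on exonic lengths, such as 37761 bases for EIF3E.

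Several of these abundant factors are textbook TOP mRNAs, whose transcripts begin with a C and a run of pyrimidines through which mTORC1 and LARP1 control their translation. Start sites were read from a set of RefSeq starts (GRCh38.p14), in which 50 of the 63 genes had at least 1 entry. The set did not cover every gene, so a gene without an entry in it may still have a RefSeq start. Each sequence runs 5′ to 3′ from 10 bases before the RefSeq start through the first 20 transcribed bases, with capitals marking an unbroken run of at least 5 pyrimidines that begins with C at the start itself. The first 5 are TOP mRNAs, EIF4A2 has such a run but fell, and EIF1 and EIF1B, the largest rises, have none. Not shown are the RefSeq start of EEF1G and another start of EEF1B2, both TOP mRNAs, which lack such a run. The TOP mRNAs EEF1D, EIF3E and EIF3H had no entry in the set. The windows are EEF1A1 at chr6:73521013-73521042 (minus strand), EEF2 at chr19:3985444-3985473 (minus strand), EEF1B2 at chr2:206159885-206159914 (plus strand), EIF4B at chr12:53006446-53006475 (plus strand), EIF3F at chr11:7987327-7987356 (plus strand), EIF4A2 at chr3:186783567-186783596 (plus strand), EIF1 at chr17:41688875-41688904 (plus strand) and EIF1B at chr3:40309697-40309726 (plus strand).
EEF1A1: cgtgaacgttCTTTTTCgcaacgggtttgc
EEF2: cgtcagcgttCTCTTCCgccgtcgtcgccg
EEF1B2: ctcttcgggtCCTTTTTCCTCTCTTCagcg
EIF4B: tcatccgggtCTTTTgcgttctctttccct
EIF3F: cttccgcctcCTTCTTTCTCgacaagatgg
EIF4A2: gcgccgctgtCTTTTCagtcgggcgctgag
EIF1: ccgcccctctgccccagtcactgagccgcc
EIF1B: cattttgtgcgagaagccgcagcgccgcct

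Among the 9 factors listed as TOP mRNAs (EEF1A1, EEF1B2, EEF1D, EEF1G, EEF2, EIF3E, EIF3F, EIF3H and EIF4B), 8 were tested and none was called. Their log2(FC) ran from 0.045 (EEF1D) to 0.20 (EEF2), with a median of 0.11, and 7 of the 8 had an adjusted p of at most 0.05, where 34.7% of all genes were called and 53.7% had such an adjusted p. Under quantile normalization the adjusted p-values of the 8 (limma) ran from 0.0594 to 0.801. All 8 values were above 0 with the scaling used here, but EIF3E and EEF1D were below 0 under quantile normalization, and EEF1D also on log2(FPKM). By sequence, 13 tested factors had a pyrimidine run at a RefSeq start, and 11 of these had a log2(FC) above 0, the exceptions being EIF4A2 (-0.43) and EIF3M (-0.069). That number was 10 under upper-quartile scaling and 9 under quantile normalization and on log2(FPKM). For comparison, 390 of the 781 tested genes with such a run (49.9%) had a log2(FC) above 0. Among the 34 tested factors with a start in the set and no run, 13 did. These comparison numbers also fell, to 356 and 11 under upper-quartile scaling and to 350 and 10 under quantile normalization. On log2(FPKM + 0.1) they were 336 and 10. The run is found at 4.07% of all RefSeq starts in the table.

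The same RefSeq promoters, 250 bases before to 50 after the start, were searched on both strands for a pair of motifs that do not overlap in letters. The E-box CACGTG, bound by MYC and related proteins, was found for 13 of the 50 matched factors (26.0%), against 8.77% of the 27305 genes with a RefSeq entry, tested or not. These included 2 of the 4 matched upregulated factors (EIF1B and EIF5A2) and 4 of the 11 matched downregulated ones (EEF1AKMT4, EEF2K, EIF4E and EIF4G1), so the E-box was present among factors that moved in both directions. The letters TGATGNAA, the core of the composite element bound by ATF4 with C/EBP proteins, were found for 1 factor, EIF4E3 (2.0% of the matched factors), against 4.46% of the same 27305 genes. Of the genes tested, only 10691 had an entry, so these shares do not compare like with like. EIF2S2 and EIF4EBP1 had no entry in the set of starts. A match in a window is not evidence of binding, and neither motif was tested against the changes.

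The genes that act with these factors were taken as a list of 37, all tested, of which 10 passed both thresholds (27.0%, against 34.7% of all genes), 6 upregulated and 4 downregulated, with a median log2(FC) of 0.02. The largest rise was that of MKNK2, a kinase that phosphorylates eIF4E, which stood at 13.96, 13.3, 13.9 and 12.7 FPKM in ethanol and 23.8, 22.6, 23.9 and 23.6 FPKM in O/A (log2(FC) 0.85, standard error 0.036, adjusted p = 1.59e-26). PAIP2, which takes poly(A)-binding protein away from mRNA, stood at 19.9, 18.8, 20.3 and 18.4 FPKM in ethanol and 28.7, 26.1, 27.9 and 26.7 FPKM in O/A (log2(FC) 0.55, standard error 0.039, adjusted p = 3.67e-17). PDCD4, an inhibitor of eIF4A, stood at 21.9, 21.3, 24.8 and 22.9 and 30.8, 30.4, 29.04 and 27.3 FPKM in the same order (log2(FC) 0.42, standard error 0.04, adjusted p = 1.41e-09). For each of these 3 genes no O/A library fell into the ethanol range.

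The largest fall was that of RPTOR, the subunit of mTORC1 that recruits 4E-BPs and other substrates, from 4.35, 3.86, 4.4 and 4.53 FPKM in ethanol to 2.56, 2.71, 2.87 and 2.91 FPKM in O/A (log2(FC) -0.59, standard error 0.053, adjusted p = 1.3e-13). DPH2, which takes part in making diphthamide, a modified residue of eEF2, fell from 10.6, 9.75, 10.3 and 10 to 7.47, 6.33, 7.69 and 6.76 FPKM (log2(FC) -0.48, standard error 0.06, adjusted p = 1.84e-09). GSPT2, a release factor GTPase, stood at 1.31, 1.14, 1.35 and 1.04 FPKM in ethanol and 0.57, 0.97, 0.95 and 1.05 FPKM in O/A, on 28 to 67 counts per library, and was called although its conditions overlapped (log2(FC) -0.40, standard error 0.17, adjusted p = 0.0431). The other calls were DPH3 (0.34), DNAJC24 (0.29) and MKNK1 (0.253, at the threshold and with overlapping conditions), upregulated, and ABCE1 (-0.34), the recycling ATPase, downregulated. Of the diphthamide genes, DPH2 thus fell while DPH3 and DNAJC24 rose, and the kinases MTOR (-0.04) and RPS6KB1 (0.078) passed neither threshold. The TOP-binding protein LARP1 (-0.13) and the poly(A)-binding protein PABPC1 (0.19), itself a TOP mRNA, had an adjusted p of at most 0.05 within the log2(FC) threshold.

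**Figure D4:**
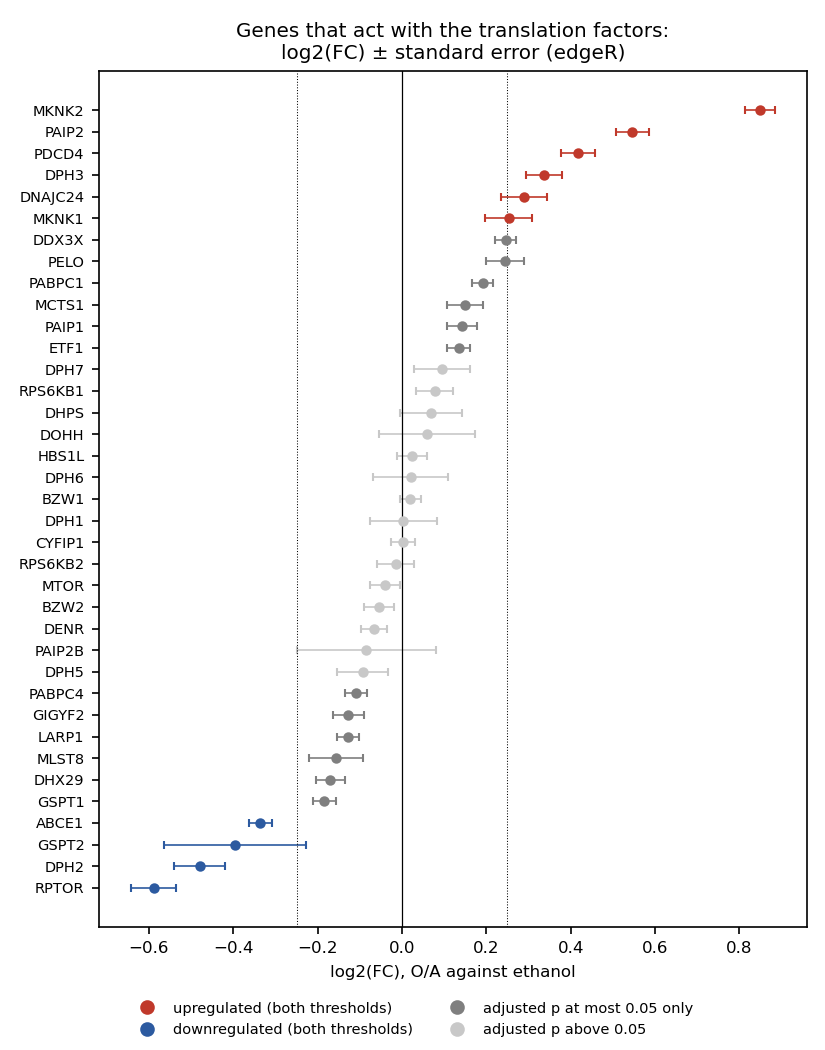
Log2(FC) of O/A against ethanol for the 37 genes that act with the translation factors, with each point an edgeR estimate from 4 libraries against 4, bars its standard error, and dotted lines the thresholds of -0.25 and 0.25. MKNK2 (0.85) is highest and RPTOR (-0.59) lowest, and 27 of the 37 genes were not called.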

How the data were processed

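Poly(A) RNA of N/TERT-1 cells was sequenced in 8 libraries, 4 per condition, grouped by the sample titles. The deposited counts came from HISAT2 2.0.1 alignments to GRCh38.p13 that the authors counted per gene with HTSeq 0.6.1, per the submitters' processing notes. The strand setting and Ensembl release are not given in the sources used here, so reads from overlapping genes cannot be told apart. The deposited FPKM values follow from these counts, the exonic length and the library total, to within 0.005 for every value. The authors' own DESeq2 comparison (mean, fold change, standard error, statistic, p-value and adjusted p-value) was also deposited and was not used.

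Counts were fitted with edgeR 4.0.16 in R 4.3.3 (TMM scaling, robust quasi-likelihood test, Benjamini-Hochberg over the 14893 genes with 10 or more counts in 4 or more libraries). FPKM levels are scaled by library total, without TMM. Replicate n was 4 per condition, and the counting error of genes with few reads limits their precision. The members, role groups and lists were chosen with earlier results of these data known. Values by library are given for the 16 factors with the largest changes past both thresholds, for a fixed list of 26 factors (EIF4EBP1 to EIF4EBP3, EIF4E and relatives, EIF4A1, EIF4A2, EIF4B, the EIF4Gs, EIF2S1 to EIF2S3, EIF2B1 to EIF2B5, EIF1, EIF5, EIF5A, EEF1A1, EEF2 and EEF2K) and for the 3 largest rises and falls among the 37 genes that act with them. Ratios between factors, start sequences and motifs were chosen after values were seen. The fit was tested on simulated data. Alternatives were DESeq2 1.42.0, other scalings, limma 3.58.1 on log2(FPKM + 0.1) and log2(FPKM + 1), no filter, pseudogene counts added to their parents, a block for the replicate number, other fold change thresholds, and leaving out each library. Exonic overlaps were read from GENCODE 44 (GRCh38), in which 62 of the 63 genes had the start and end of the authors' table. Start sequences and promoters are from a set of RefSeq starts (GRCh38.p14) that did not cover every gene.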

Additional observations from a re-analysis of the deposited data

Results flagged for a closer look

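In 7 of the 120 sets of 4 libraries (60 factors in each condition), 1 library lay apart from the other 3 by Dixon's test, where chance alone would give about 6. In O/A, EEF1AKMT2 in replicate 1 was at 13 CPM (TMM-scaled counts relative to library size), against 14.35 to 14.54 in the others. EEF2KMT in O/A replicate 3 was at 9.37, against 9.893 to 9.968. EIF2B1 in O/A replicate 2 was at 65.47, against 59.7 to 60.63. In ethanol, EIF2S1 in replicate 4 was at 200.2, against 210.0 to 212.0, and EIF3H in the same library was at 233.2, against 242.8 to 244.2. EIF2S3B in ethanol replicate 1 was at 7.919, against 6.111 to 6.322, and EIF4EBP2 in the same library was at 98.31, against 103.8 to 104.9. The falls of EEF2KMT and EIF4EBP2 passed both thresholds without any 1 library, and the causes of these gaps were not tested.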

How the results depend on the processing

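Over 17 alternatives of tool, scaling, unit, filter, block, pseudogene counts and left-out library, 17 to 21 factors passed both thresholds, 5 to 9 up and 10 to 13 down; 0 of the 19 called factors changed direction, and 4 lost the call in at least 1 alternative. EIF2B2 lost it on log2(FPKM + 1) (0.24), EIF4A1 (-0.12) and EIF4E (-0.249) with pseudogene counts added, and EEF1AKMT3 in 9. EIF2A passed in 7, at 0.26 to 0.27, EIF2D in 1 (0.2504 without O/A replicate 2), EIF5B in 1 (-0.28, quantile normalization) and EEF1AKMT1 in 4. Among the 37 partner genes, 7 (log2(FPKM + 1)) to 12 passed over the same alternatives, against 10. Of the 21 factors with an adjusted p of at most 0.05 only, 12 were above 0.05 under quantile normalization. The fold change threshold moved the counts most: with a log2(FC) threshold of 0, 40 factors passed (22 up, 18 down), with 0.5, 9 (5 up, 4 down), and with 1, 1 (0 up, 1 down).

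Small values changed sign for 14 factors. Among them EIF2S3, EIF3E, EIF3I and EIF5 had an adjusted p of at most 0.05 by edgeR, and each turned under quantile normalization. Under upper-quartile scaling these were EEF1AKMT2 (-0.00092), EIF2B3 (-0.016), EIF3D (-0.011) and EIF3G (-0.0045). Under quantile normalization they were EEF1D (-0.060), EIF2S3 (-0.0049), EIF3D (-0.065), EIF3E (-0.021), EIF3G (-0.015), EIF3I (-0.0077), EIF4A3 (-0.0024) and EIF5 (-0.015). On log2(FPKM + 0.1) they were EEF1AKMT2 (-0.0069), EEF1D (-0.0013), EIF2B3 (-0.034), EIF3CL (-0.00028), EIF3D (-0.023), EIF3G (-0.018), EIF3K (-0.0045) and EIF4A3 (-0.011). On log2(FPKM + 1) they were EEF1AKMT2 (-0.0054), EEF1D (-0.0013), EIF2B3 (-0.030), EIF3D (-0.023), EIF3G (-0.017), EIF3K (-0.0044) and EIF4A3 (-0.010). With each library left out in turn, EEF1A2 ranged from -0.14 to 0.27, EEF1AKMT2 from -0.021 to 0.071, EIF2B3 from -0.039 to 0.060, EIF3CL from -0.054 to 0.18 and EIF4H from -0.025 to 0.017. Among the FPKM alternatives the median of all genes was -0.043 on log2(FPKM + 0.1). The causes were not tested.

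Deviations of libraries with the same replicate number correlated at 0.065, -0.0047, -0.059 and 0.12. Libraries with unlike numbers were not compared in this way, so pairing was not excluded. With the number as a block, 19 factors (7 up, 12 down) and 10 of the listed partner genes passed, and 40 factors had an adjusted p of at most 0.05; the block changed no call among the factors.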
